A study of Homo sapiens with 6 samples.

Results

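The 10 genes described here make the proteins of non-homologous end joining, the repair route that rejoins the 2 ends of a broken DNA molecule. They were chosen by symbol (XRCC5, XRCC6, PRKDC, DCLRE1C, POLL, POLM, LIG4, XRCC4, NHEJ1 and TP53BP1), and all 10 were found among the 29804 symbols of the count table and passed the filter on low counts that left 14672 genes. RNA was sequenced from 22Rv1, a human prostate carcinoma epithelial cell line that the labels list with the genotype WT in every library, in 3 groups of 2 biological replicates. WT cells were untreated and taken at week 0. AM cells (age matched) were grown for 6 weeks without drug. 6WP cells were grown for 6 weeks and treated on each week day with phleomycin, a radiomimetic that cuts DNA, at 1 µg/ml for 1 hour. After each treatment the drug was washed off and the medium replaced. The 6WP libraries therefore hold RNA of the cells that survived or outlasted the exposure in a single line. The labels do not say whether the replicates of a group came from separately treated cultures, so the p-values measure the spread between these libraries only.

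End joining works without a template and is open to the cell throughout the cell cycle. A ring of Ku70 and Ku80 slides onto each DNA end and brings in the catalytic subunit of DNA-PK, a large kinase that holds the ends together. The nuclease Artemis trims ends that cannot be joined, DNA polymerases lambda and mu fill short gaps, and DNA ligase IV with its partners XRCC4 and XLF seals the strands. TP53BP1 binds chromatin around a break and shields the ends from the resection that homologous recombination needs.

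Expression is given as TMM-normalized CPM, which is counts relative to the library total after scaling each library by edgeR's trimmed mean factor. Library totals ran from 21222201 to 35311945 counts, and the lowest count of a member was 143 (XRCC4 in the second WT library). On the log2 scale, replicates of a typical gene differed by an SD of 0.0854 (WT), 0.0911 (AM) and 0.196 (6WP), so the 6WP pair was the least alike. The luminal epithelial markers KRT8, KRT18 and EPCAM and the prostate marker KLK3 had at least 1121 counts in each library. Of 10 markers of leukocytes, endothelium and fibroblasts, PTPRC, CD3E and CDH5 were at 0 throughout, and the summed level of the 10 was between 7.96 and 12.5 CPM in all libraries. In bulk RNA, fewer cells expressing a gene and less RNA per cell cannot be told apart.

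The 3 genes of end binding were the most abundant members, and they were lowest in 6WP cells. XRCC5, XRCC6 and PRKDC summed to 2030 and 1909 CPM in the WT libraries, 2398 and 2426 CPM in the AM libraries and 1523 and 1468 CPM in the 6WP libraries. The other 7 members summed to between 128 and 154 CPM in every library. The 10 members together took 0.220% and 0.210% of all counts in WT, 0.252% and 0.246% in AM, and 0.170% and 0.159% in 6WP cells. Within the members' own counts, the share of the 3 end binding genes was 93.7% and 93.1% in WT, 94.6% and 95.0% in AM, and 91.7% and 90.5% in 6WP cells.

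In 6WP cells compared with AM cells, the comparison that holds the weeks in culture equal, 5 of the 10 members passed the test at an adjusted p under 0.05, 3 of them lower and 2 higher. Of all tested genes, 21.3% passed in this comparison, 9.68% lower and 11.7% higher. The 2 groups did not overlap for 6 of the 10 members, beside 62.3% of all tested genes. XRCC5, XRCC6 and PRKDC fell, and POLL and LIG4 rose. The median log2 fold change of the members was -0.04, beside 0.05 over all tested genes. Tests were edgeR's quasi-likelihood test on all 6 libraries with Benjamini-Hochberg adjustment over the 14672 genes.

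**Figure D1:**
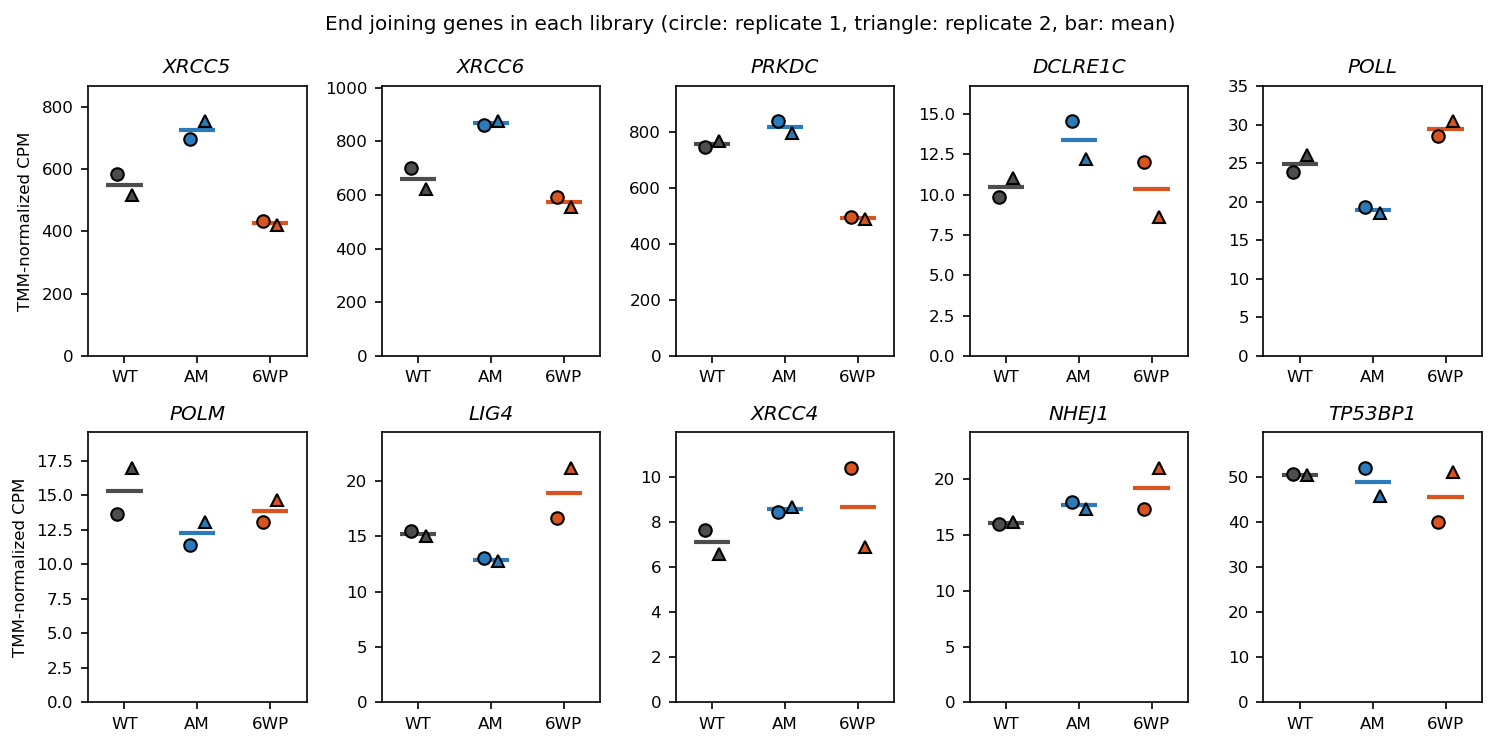
Each panel plots 1 end joining gene, with TMM-normalized CPM on a linear axis from 0 for the WT, AM and 6WP groups, a circle for replicate 1, a triangle for replicate 2 and a bar for the mean. In the panels of XRCC5, XRCC6 and PRKDC both 6WP libraries lie below every other library, and in the panel of POLL both lie above every other library.

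XRCC5 encodes Ku80, the larger subunit of the Ku ring. Its level was 583 and 515 CPM in WT, 697 and 754 CPM in AM, and 434 and 422 CPM in 6WP cells. The 3 groups did not overlap, with AM on top and 6WP at the bottom. Against AM the level in 6WP fell by 41.0%, a log2 fold change of -0.76 (SE 0.11, adjusted p = 0.00577). Against WT the log2 fold change was -0.36 (SE 0.11, adjusted p = 0.117), which did not pass. XRCC5 lies on the plus strand of chromosome 2 of GRCh38 (chr2:216107464-216206303), and 1 of the 11 tested genes within 2 Mb on either side had a lower fold change against AM.

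XRCC6 encodes Ku70, the other subunit of the ring. It was measured at 698 and 623 CPM in WT, 860.0 and 874 CPM in AM, and 593 and 555 CPM in 6WP cells. Again the groups did not overlap, and the gap between 6WP and WT was the narrow one. The log2 fold change was -0.60 against AM (SE 0.11, adjusted p = 0.0112), a level that fell by 33.8%, and -0.20 against WT (SE 0.11, adjusted p = 0.320). Per length of exon XRCC6 was above XRCC5 in every library. The ratio of XRCC6 to XRCC5 per length was 2.02 and 2.04 in WT, 2.08 and 1.95 in AM, and 2.30 and 2.21 in 6WP cells. Reads of XRCC6 are less certain than those of XRCC5, because the annotation holds 5 pseudogenes of it, of which 2 have rows of their own in the table.

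PRKDC encodes the catalytic subunit of DNA-PK. Its level was 749 and 771 CPM in WT, 840.3 and 798 CPM in AM, and 496 and 492 CPM in 6WP cells. The 6WP pair was far below the other 4 libraries, while WT and AM were close to each other. The log2 fold change was -0.73 against AM (SE 0.10, adjusted p = 0.00508) and -0.62 against WT (SE 0.10, adjusted p = 0.0249), levels that fell by 39.7% and 35.0%. It was the only member that passed in 6WP against WT, where 3.00% of all tested genes passed, 1.37% lower and 1.63% higher. The 6WP and WT libraries did not overlap for 6 of the 10 members, beside 50.7% of all tested genes. The members' median log2 fold change against WT was -0.08, beside 0.01 over all tested genes.

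POLL encodes DNA polymerase lambda, a gap filling enzyme of the X family. It had 23.9 and 26.0 CPM in WT, 19.3 and 18.6 CPM in AM, and 28.5 and 30.5 CPM in 6WP cells. The groups did not overlap, and their order was the reverse of that of XRCC5 and XRCC6. Against AM the level in 6WP was 55.9% higher, a log2 fold change of 0.64 (SE 0.12, adjusted p = 0.0129), and against WT the log2 fold change was 0.24 (SE 0.12, adjusted p = 0.295). POLL lies on the minus strand of chromosome 10 (chr10:101578882-101588270), and its fold change against AM was above that of all 51 tested genes within 2 Mb on either side, whose median was -0.07. Its exons share 243 bases with DPCD on the opposite strand, and the strand setting of the count is not given in the sources used here. DPCD itself was at 35.2 and 39.9 CPM in AM and 34.0 and 29.6 CPM in 6WP cells (log2 fold change -0.24, adjusted p = 0.210).

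LIG4 encodes DNA ligase IV, the enzyme that seals the break. Its level was 15.4 and 15.0 CPM in WT, 13.0 and 12.8 CPM in AM, and 16.7 and 21.2 CPM in 6WP cells. The groups did not overlap, but the 6WP libraries were further apart from each other than the lower one was from WT. Against AM the level was 46.9% higher, a log2 fold change of 0.55 (SE 0.16, adjusted p = 0.0406), and against WT the log2 fold change was 0.31 (SE 0.16, adjusted p = 0.286). LIG4 lies on the minus strand of chromosome 13 (chr13:108207439-108218368). The 4 tested genes within 2 Mb on either side had a median log2 fold change of 0.28 against AM, and 3 were below LIG4.

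These 5 calls against AM were lost without the first or the second AM library, as were most calls over all tested genes. The AM group then held 1 library, so only effect sizes are given for these fits. Without the first AM library the log2 fold change was -0.82 in XRCC5, -0.61 in XRCC6, -0.69 in PRKDC, 0.67 in POLL and 0.56 in LIG4. Without the second AM library the values were -0.70, -0.58, -0.76, 0.62 and 0.54 in the same order. All 5 kept their direction. The call of LIG4 was also lost without the first or second WT library, without the second 6WP library, and in the fit of only the 6WP and AM groups. Its log2 fold change was 0.34 without the second 6WP library, the library in which it was highest. The fall of PRKDC against WT was lost without the first or second WT library (adjusted p = 0.319 and 0.254), without the first or second AM library (0.0919 and 0.0938), and when the AM libraries were kept out of the model. Its log2 fold change stayed between -0.65 and -0.60 in all 15 alternatives. With 1 of the 6WP libraries, the more variable pair, left out, calls against WT rose among the members and over all tested genes. Without the first and the second in turn, the log2 fold change against WT was -0.40 and -0.37 in XRCC5 and -0.64 and -0.64 in PRKDC. It was 0.46 and 0.10 in LIG4, -0.056 and 0.52 in XRCC4, and 0.0044 and -0.37 in TP53BP1.

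**Figure D2:**
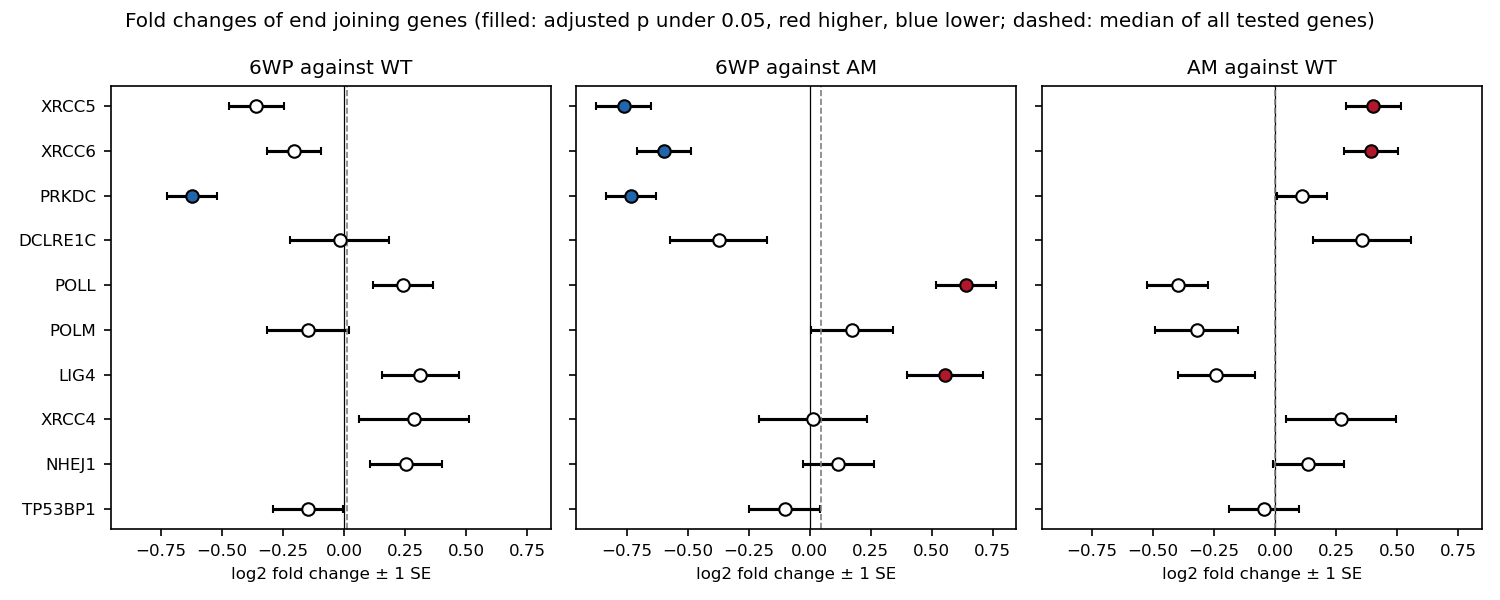
The log2 fold change of each end joining gene is plotted with 1 SE in the 3 comparisons, filled red for higher and filled blue for lower at an adjusted p under 0.05, with a dashed line at the median of all tested genes. In 6WP against AM the 3 end binding genes sit between -0.76 and -0.60 and POLL and LIG4 at 0.64 and 0.55, while in 6WP against WT the only filled point is PRKDC at -0.62.

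The change of POLL and LIG4 relative to PRKDC can be read without scaling, as the ratio of 2 genes' counts in the same library. Such a ratio does not show which of the 2 genes moved. The direction of each gene by itself still rests on the scaling. The log2 ratio of POLL to PRKDC counts was -4.97 and -4.89 in WT, -5.45 and -5.42 in AM, and -4.12 and -4.01 in 6WP cells. The log2 ratio of LIG4 to PRKDC counts was -5.60 and -5.68 in WT, -6.01 and -5.96 in AM, and -4.90 and -4.54 in 6WP cells. In both ratios AM had the lowest and 6WP the highest pair of values, with no overlap between groups. These ratios restate the values above and add no independent evidence.

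The remaining 5 members did not pass in any of the 3 comparisons in the fit of all 6 libraries. In that fit DCLRE1C had a log2 fold change of 0.35 in AM against WT (adjusted p = 0.244). It passed in this comparison when only the AM and WT groups were fitted. Artemis, encoded by DCLRE1C, is the nuclease that opens hairpins and trims overhangs, and its gene was at 9.87 and 11.0 CPM in WT, 14.6 and 12.2 CPM in AM, and 12.0 and 8.60 CPM in 6WP cells. POLM, the gene of DNA polymerase mu, was at 13.7 and 17.0 CPM in WT, 11.4 and 13.1 CPM in AM, and 13.1 and 14.6 CPM in 6WP cells. The 6WP libraries of DCLRE1C lay on either side of the WT pair and those of POLM within or just below it, and the log2 fold changes against WT were -0.02 (adjusted p = 0.972) and -0.15 (adjusted p = 0.645). DCLRE1C shares 159 exon bases with SUV39H2 on the opposite strand, which was at 33.8 and 29.3 CPM in WT, 39.6 and 32.8 CPM in AM, and 27.0 and 29.8 CPM in 6WP cells and passed in no comparison. Between the related polymerases, the log2 ratio of POLL to POLM counts was 0.81 and 0.62 in WT, 0.76 and 0.51 in AM, and 1.13 and 1.06 in 6WP cells.

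XRCC4, the scaffold that binds and stabilizes DNA ligase IV, was at 7.63 and 6.57 CPM in WT, 8.44 and 8.69 CPM in AM, and 10.4 and 6.91 CPM in 6WP cells. It is the member with the fewest counts, and its 6WP libraries spanned the AM values (log2 fold change against AM 0.02, SE 0.22, adjusted p = 0.967). The log2 count ratio of the ligase to its scaffold (LIG4 to XRCC4) was 1.02 and 1.19 in WT, 0.62 and 0.56 in AM, and 0.68 and 1.62 in 6WP cells, so it was widest apart between the 6WP libraries. NHEJ1 encodes XLF, which forms filaments with XRCC4 along the DNA, and it was at 15.9 and 16.2 CPM in WT, 18.0 and 17.3 CPM in AM, and 17.3 and 21.0 CPM in 6WP cells. Its log2 fold change was 0.12 against AM (adjusted p = 0.586) and 0.25 against WT (adjusted p = 0.346), and 2034 of its exon bases are shared with an unnamed gene on the same strand.

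TP53BP1, which steers breaks toward end joining, was the member outside the end binding group with the highest CPM. It was at 50.6 and 50.3 CPM in WT, 52.0 and 45.8 CPM in AM, and 39.9 and 51.2 CPM in 6WP cells. The 6WP libraries disagreed, 1 lying below and 1 within the range of the untreated cells, and the log2 fold change was -0.10 against AM (SE 0.14, adjusted p = 0.637) and -0.15 against WT (SE 0.14, adjusted p = 0.582). TP53BP1 shares 3732 exon bases with TUBGCP4, a gene for a part of the gamma-tubulin ring, on the opposite strand. TUBGCP4 was at 39.7 and 38.6 CPM in WT, 36.4 and 32.1 CPM in AM, and 25.3 and 27.4 CPM in 6WP cells, with log2 fold changes of -0.57 against WT (adjusted p = 0.0527, under 0.05 in 6 of 15 alternatives) and -0.38 against AM (adjusted p = 0.0631). What this overlap adds to the counts of TP53BP1 was not tested.

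The week 6 controls also differed from week 0. In AM compared with WT, 2 of the 10 members passed, both higher, beside 17.7% of all tested genes, 7.74% higher and 9.93% lower. The AM and WT libraries did not overlap for 9 of the 10 members, beside 73.8% of all tested genes. XRCC5 rose by 32.1% (log2 fold change 0.40, SE 0.11, adjusted p = 0.0440) and XRCC6 by 31.2% (0.39, SE 0.11, adjusted p = 0.0454). PRKDC, which works with Ku, did not pass (0.11, SE 0.10, adjusted p = 0.475). POLL had a log2 fold change of -0.40 (SE 0.13, adjusted p = 0.0621). The members' median was 0.12, beside -0.00 over all tested genes.

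Both Ku calls lay close to the threshold and were lost in 8 of 15 alternatives. They failed without the first WT library (adjusted p = 0.155 and 0.164 for XRCC5 and XRCC6), the second WT library (0.289 and 0.292), the first AM library (0.168 and 0.210) or the second AM library (0.306 and 0.271), and with upper quartile scaling (0.0815 and 0.0870) or library totals alone (0.0648 and 0.0737). Under the last 2 scalings POLL passed as lower in AM. It did so too without either 6WP library, when more calls were made over all tested genes as well. Its log2 fold change was -0.41 without the first 6WP library and -0.39 without the second. The comparisons of 6WP with AM and of AM with WT share the AM libraries, so a high value in AM enters both with opposite sign.

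By abundance per length the members fell into 2 tiers in each group. CPM per kb of exon was 204 ± 16.4 for XRCC6, 101 ± 8.81 for XRCC5 and 26.1 ± 0.533 for PRKDC in WT cells (SD, n = 2 each). All other members were at or below 4.61 ± 0.282 CPM per kb, the level of POLL. DCLRE1C was lowest at 0.683 ± 0.0536 CPM per kb. XRCC6, XRCC5 and PRKDC kept this order in all 3 groups, with gaps wider than the sum of their SDs over all exons and the same order over the canonical transcript. PRKDC has the longest transcript of the members, so its CPM, the highest of all members in WT, is not the highest level per length.

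**Figure D3:**
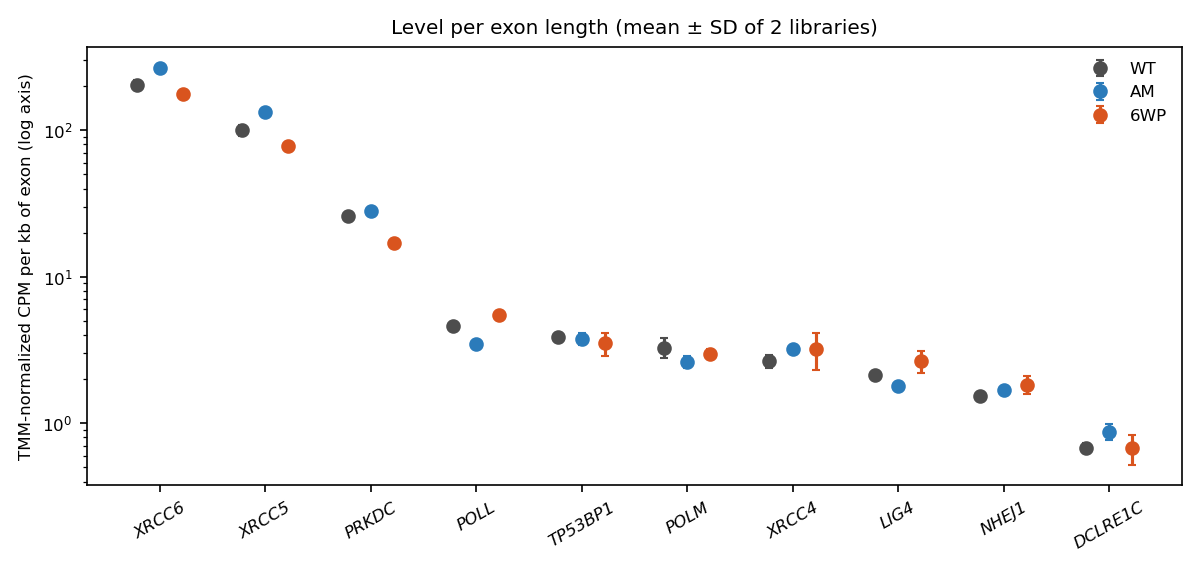
TMM-normalized CPM per kb of exon is shown on a log axis for the 10 end joining genes as the mean and SD of 2 libraries per group. XRCC6, XRCC5 and PRKDC stand above the other 7 genes in WT, AM and 6WP cells, and on this exon length the order among POLL, TP53BP1, POLM and XRCC4 changes between groups.

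In the lower tier, neighbours in the order could not always be separated. POLM and XRCC4 in WT, TP53BP1 and POLL in AM, and TP53BP1, XRCC4, POLM and LIG4 in 6WP cells lay closer to the next gene than the sum of their SDs. POLL led this tier in 6WP cells at 5.44 ± 0.255 CPM per kb, 1.94 above TP53BP1, but in AM cells it stood at 3.49 ± 0.0928, below TP53BP1 at 3.77 ± 0.338. This change of order depended on the length used. Over the canonical transcript POLL led the tier in all 3 groups, and in AM cells it was at 6.81 ± 0.181 CPM per kb with TP53BP1 at 4.72 ± 0.423.

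Of the members, 4 have another gene that starts within 1000 bases upstream and is read in the opposite direction, which gives a neighbour to set beside each. Pairs whose starts overlap fell outside this count. DPCD and SUV39H2, which share exon bases with POLL and DCLRE1C, were not placed in it. Distances here run between the outermost annotated starts of the genes. XRCC6 starts 120 bases from DESI1, PRKDC 7 bases from MCM4, LIG4 24 bases from ABHD13, and TP53BP1 230 bases from MAP1A. PRKDC, on the minus strand of chromosome 8 (chr8:47773111-47960178), and MCM4, a subunit of the replicative helicase, both fell in 6WP cells. MCM4 was at 434 and 388 CPM in WT, 613 and 640 CPM in AM, and 285 and 213 CPM in 6WP cells, with log2 fold changes of -1.33 against AM (adjusted p = 0.00272) and -0.72 against WT (adjusted p = 0.0464). MCM4 rose in AM against WT (0.61, adjusted p = 0.0300), where PRKDC did not pass, and that difference between the genes was not tested. Without the second AM library the fall of MCM4 against AM had an adjusted p of 0.0510, and its differences from WT in 6WP and in AM cells failed without either WT or either AM library (adjusted p up to 0.431 and 0.214).

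XRCC6 and DESI1 had fold changes of opposite sign in 6WP cells. DESI1, a gene for a peptidase of the SUMO pathway, was at 74.7 and 72.0 CPM in WT, 90.7 and 95.6 CPM in AM, and 114 and 99.5 CPM in 6WP cells. It was higher than WT in 6WP cells (log2 fold change 0.54, adjusted p = 0.0469), a call lost in 7 of 15 alternatives, those without either WT or either AM library among them (adjusted p up to 0.411), and had a log2 fold change of 0.20 against AM (adjusted p = 0.233), where XRCC6 had -0.60. ABHD13, beside LIG4, ran from 20.1 to 24.2 CPM and passed in none of the comparisons, with 0.13 against AM (adjusted p = 0.486). MAP1A, the gene of a microtubule-associated protein, fell from 6.63 and 6.12 CPM in AM to 2.42 and 2.36 CPM in 6WP cells (log2 fold change -1.41, adjusted p = 0.00506), a call lost without either AM library (adjusted p up to 0.0649), and TP53BP1 beside it did not pass. Of the 4 pairs, PRKDC and MCM4 was the only one in which both genes passed against AM.

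**Figure D4:**
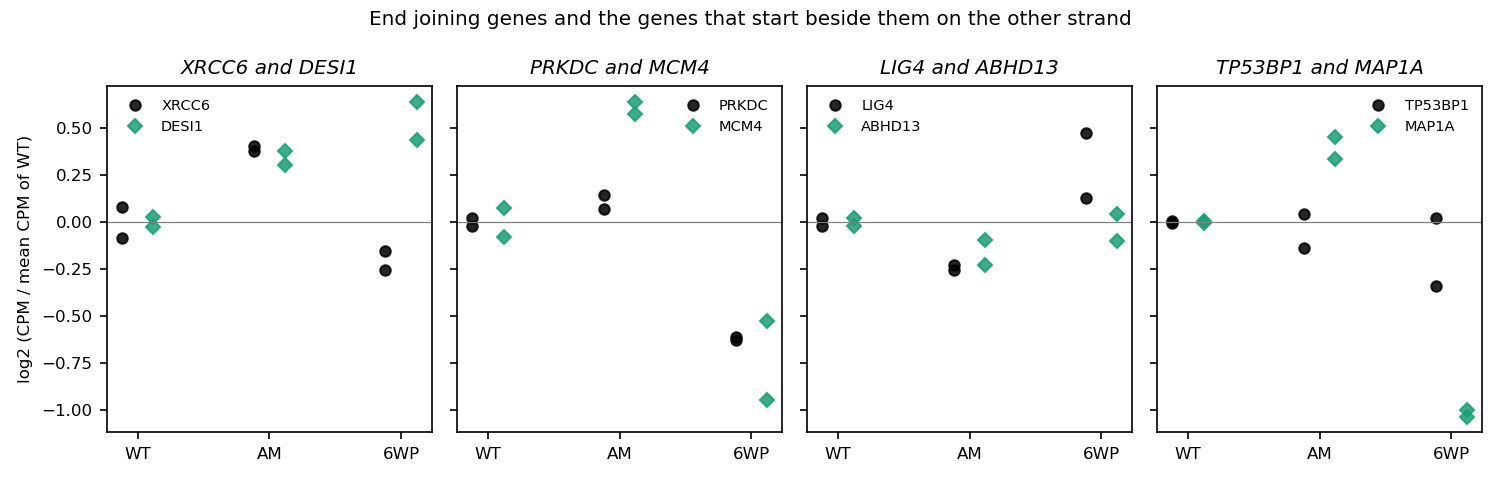
Each panel plots log2 of CPM over the WT mean for an end joining gene and the gene that starts beside it on the other strand, 1 point per library and grouped as WT, AM and 6WP. PRKDC and MCM4 both drop below 0 in 6WP cells, DESI1 stays above 0 where XRCC6 falls below it, and MAP1A drops in both 6WP libraries while TP53BP1 is below 0 in 1 of them.

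The start regions of XRCC6, which fell, and POLL, which rose, are printed because these members moved most clearly in opposite directions among those with an entry in the RefSeq promoter table (GRCh38.p14), which matched 8 of the 10 members. The first is the plus strand of chr22:41621045-41621162, the 118 bases between the outermost annotated starts of XRCC6 and DESI1, with GC boxes (GGGCGG) in capitals. The second is the minus strand of chr10:101588401-101588507, 107 bases of the window before POLL that hold no annotated exon, where none of the motifs searched was found. This stretch stops short of the outermost start of POLL at position 101588270, while that of XRCC6 runs up to its start at 41621163. The 2 stretches therefore lie at unlike distances from their genes.
XRCC6: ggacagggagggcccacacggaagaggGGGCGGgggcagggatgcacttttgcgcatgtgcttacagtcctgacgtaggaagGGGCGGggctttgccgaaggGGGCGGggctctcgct
POLL: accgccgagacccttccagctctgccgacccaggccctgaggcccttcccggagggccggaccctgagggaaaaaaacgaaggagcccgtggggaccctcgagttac

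Over the 250 bases before the RefSeq start nearest to that of the canonical transcript, and on both strands, the 8 matched members were searched for the CCAAT box (CCAAT), the GC box (GGGCGG) and the E2F cores TTTGGCGC, TTTCCCGC and TTTCGCGC. XRCC6 held 3 GC boxes and 1 CCAAT box, and POLL held neither. POLM had 4 GC boxes and 2 CCAAT boxes, DCLRE1C had 2 of each, TP53BP1 had 2 GC boxes and 1 CCAAT box, NHEJ1 had 2 GC boxes, XRCC4 had 1 GC box and LIG4 had 1 CCAAT box. Among 34943 promoters of the table, 42.5% held a GC box and 32% a CCAAT box. The E2F cores (0.547%, 1.39% and 0.429% of promoters) were in none of the 8 windows. The second E2F core can share letters with a GC box on the other strand, but no such overlap arose here. That start lies inside the gene for some members, 2832 bases from the outermost start of LIG4 (so its window is not the region shared with ABHD13) and 336 bases from that of DCLRE1C, and for TP53BP1 the nearest entry was 17484 bases from the canonical start. A match is a description of sequence only, and these windows were not searched for other letters.

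Genes that act beside the members were read from lists of accessory end joining factors, of the TP53BP1 and shieldin route, and of polymerase theta end joining with resection, 31 tested of 33 listed. Between 6WP and AM cells, 1 of the 31 rose and 7 fell, 25.8% of the lists beside 21.3% of all tested genes. By direction, 11.7% of all tested genes passed as higher and 9.68% as lower. The median log2 fold change was -0.27, beside 0.05 over all tested genes. The riser was PARP3, an ADP-ribosyltransferase that promotes ligation by XRCC4 and DNA ligase IV. It was at 10.8 and 13.0 CPM in WT, 11.8 and 12.2 CPM in AM, and 20.2 and 21.5 CPM in 6WP cells, with log2 fold changes of 0.80 against AM (adjusted p = 0.0117) and 0.81 against WT (adjusted p = 0.0358). PARP3 was the only gene of the 31 that passed against WT (3.23%, beside 3.00% of all tested genes), and it failed there when any 1 of the WT or AM libraries was left out (adjusted p up to 0.406).

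Of the 7 that fell against AM, 5 belong to the polymerase theta and resection list, 50% of its 10 tested genes. Over all tested genes 9.68% passed as lower. POLQ, the polymerase that joins ends through short homologies, was at 22.4 and 23.8 CPM in WT, 46.4 and 45.2 CPM in AM, and 20.4 and 12.9 CPM in 6WP cells (log2 fold change -1.46 against AM, adjusted p = 0.00473). The resection nucleases EXO1 (-1.29, adjusted p = 0.0317) and DNA2 (-1.07, adjusted p = 0.0303) fell as well, as did PARP1, a sensor of strand breaks (-0.55, adjusted p = 0.0149), and XRCC1, the scaffold of single-strand break repair (-0.53, adjusted p = 0.0481). TDP1, which removes adducts from 3′ ends (-0.55, adjusted p = 0.0481), and RIF1, which acts with TP53BP1 (-0.37, adjusted p = 0.0490), completed the set. XRCC1, TDP1 and RIF1 passed narrowly and failed under upper quartile scaling and under library totals alone. The calls of the 31 were lost without the first or the second AM library, as were most calls over all tested genes. Without a WT library fewer of the 31 passed, and without a 6WP library more passed. Calls over all tested genes moved the same way. The fold changes of the riser and the 7 that fell kept their direction in these fits. EXO1 had the widest span of them, from -2.06 to -0.83.

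In AM against WT, 4 of the 31 rose and 1 fell, 16.1% of the lists beside 17.7% of all tested genes. By direction, 7.74% of all tested genes passed as higher and 9.93% as lower. The median log2 fold change was 0.19, beside -0.00 over all tested genes. POLQ rose (0.99, adjusted p = 0.0159), as did RBBP8, the gene of the resection factor CtIP (0.84, adjusted p = 0.0277), NUDT16L1, whose product TIRR keeps TP53BP1 off chromatin (0.70, adjusted p = 0.0120), and C9orf142, the older symbol of the XRCC4-like factor PAXX (0.92, adjusted p = 0.0437). The Werner helicase gene WRN fell (-0.60, adjusted p = 0.0322). C9orf142 differed between the 6WP libraries, at 57.6 and 30.7 CPM. With any 1 of the WT or AM libraries left out the calls of the 31 were lost, as were most calls over all tested genes. Without a 6WP library more passed, both of the 31 and of all tested genes. Over these fits the log2 fold change ran from 0.95 to 1.05 in POLQ and from 0.76 to 0.95 in RBBP8. It ran from 0.57 to 0.80 in NUDT16L1, from 0.82 to 1.00 in C9orf142 and from -0.72 to -0.51 in WRN.

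**Figure D5:**
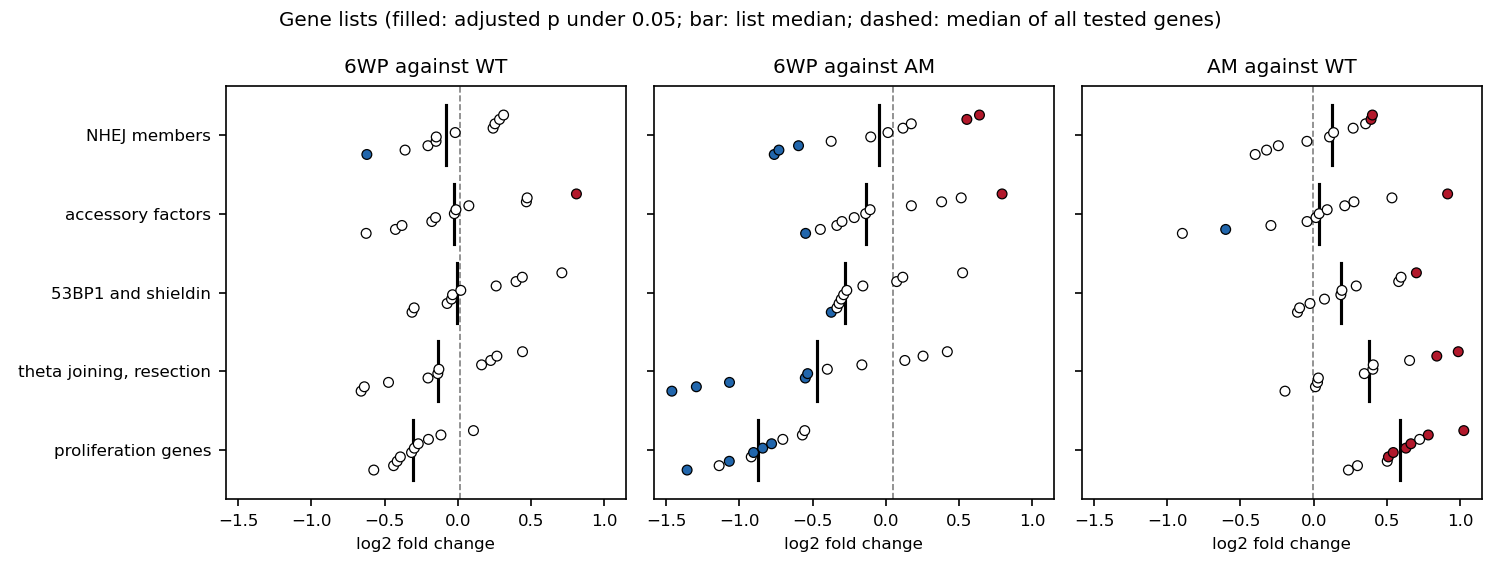
Log2 fold changes of the end joining genes and of the other gene lists are plotted by list for the 3 comparisons, with filled points at an adjusted p under 0.05, a bar at each list's median and a dashed line at the median of all tested genes. In 6WP against AM the polymerase theta and resection list and the proliferation list lie mostly to the left, and the end joining genes spread to both sides of 0.

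Proliferation genes moved between the groups too. From AM to 6WP, 5 of 10 listed genes passed as lower (PCNA, MCM2, MCM3, MCM5 and MCM6), beside 9.68% of all tested genes. None passed as higher, beside 11.7%. All 10 had negative fold changes, with a median log2 fold change of -0.87 beside 0.05 over all tested genes. In AM against WT, 6 of 10 passed as higher, beside 7.74% of all tested genes. The summed level of the 10 was between 1758 and 1929 CPM in WT, 2635 and 2751 CPM in AM, and 1071 and 1866 CPM in 6WP cells. The first 6WP library was above the second for all 10. The ratio of their CPM ran from 1.12 (MCM3) to 1.44 (PCNA) among the 5 that passed as lower against AM. It ran from 2.04 (MKI67) to 2.94 (BIRC5) among the other 5. The same ratio was 1.01 for PRKDC, 1.03 for XRCC5 and 1.07 for XRCC6. The part of proliferation in the fall of the end binding genes was not tested.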

How the data were processed

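RNA-seq counts of 22Rv1 cells were analysed in 6 libraries, 2 each of WT, AM and 6WP, grouped by their labels. The values deposited by the authors are whole-number counts for each gene symbol, not normalized, in 1 table of which 0 columns were left out. The submitters' processing notes name hg38, STAR 2.5.3a, featureCounts 1.5.3, StringTie 1.3.3 and edgeR 3.22.3 in R 3.5.0. The annotation, the strand setting and the treatment of multiply mapped reads are not given in the sources used here.

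Library totals were 21222201 to 35311945 counts, so that 3 counts, taken as the floor, equal 0.0850 to 0.141 CPM (counting error only). Genes were kept with filterByExpr, scaled by TMM and fitted with edgeR 4.0.16 (limma 3.58.1, R 4.3.3) by group on all libraries, without covariates. The quasi-likelihood F test gave two-sided p-values, adjusted over 14672 genes (threshold 0.05). The SE is the size of the log2 fold change over the square root of F. An exact permutation test of 2 against 2 libraries cannot go below 0.333. Fits were tested on simulated data.

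The members and all lists were chosen with earlier results of these data known. By rule, the genes named were the members, the related genes that passed and the measured neighbours. Neighbours start within 1000 bases upstream of a member, on the other strand. Genes with overlapping exons and single marker or proliferation genes were named after their values were seen. Alternatives were other scalings, filters and tests (DESeq2 1.42.0), a fit of 2 groups, a replicate block and leaving out each library. Those for related and neighbouring genes were added after seeing the data. Positions and lengths are from GENCODE 44 on GRCh38, the assembly of hg38, matched by symbol. The columns hold 1 library each, and the methylation and proteome data of the study were not used here.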

Additional observations from a re-analysis of the deposited data

How the results depend on the processing

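The calls rest on 2 libraries a group, and leaving 1 out assumes that the lone library varies like the other groups. For each library left out in turn, the members that passed ranged from 0 to 4 in 6WP against WT, from 0 to 6 in 6WP against AM and from 0 to 4 in AM against WT. All tested genes that passed ranged from 0 to 3870, from 116 to 6807 and from 67 to 6654. The 31 related genes ranged from 0 to 12, from 0 to 17 and from 0 to 15. The members' median for 6WP against WT ranged from -0.11 to 0.039, the latter without the second WT library. In fits of only the 2 groups compared, 0 members, 0 related genes and 96 of all genes passed in 6WP against WT (2 members had an unadjusted p under 0.05 by edgeR in these fits, and DESeq2, run only on all 3 groups, called 1). In 6WP against AM such fits called 4 members, with LIG4 not among them, 2 related genes and 1309 of all genes. In AM against WT they called 4 members, 14 related genes and 6620 of all genes. For 6WP against WT, all genes called were 440, but 894 without the filter, 1114 with the Wald test of DESeq2 and 1492 with the likelihood ratio test. Upper quartile scaling, library totals alone and a filter of 10 counts in every library each called 5 related genes in place of 8 in 6WP against AM. In AM against WT the first and second of these called 1 member in place of 2, the filter called 0 (3 members had an unadjusted p under 0.05, and DESeq2, run only without this filter, called 2), and the related genes called were 8 without the filter, 9 with DESeq2 and 8 with the likelihood ratio test, in place of 5. Scaling also moved the split of all calls. In 6WP against AM 54.6% were higher with TMM and 68.2% with upper quartile factors, and in AM against WT 43.8% with TMM, 27.3% with upper quartile factors and 30.5% with library totals alone. The cause was not tested.

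No strong effect shared by replicate number was seen. The deviations of same-numbered libraries correlated at 0.0873 (WT and 6WP), -0.0206 (AM and 6WP) and 0.0395 (WT and AM) across genes. These values do not say whether the cultures were set up in pairs. With the replicate block 0 members passed in AM against WT, where 3 had an unadjusted p under 0.05 and DESeq2, run only without the block, called 2. The block left 1 and 5 members called in the other comparisons and called 393 of all genes for 6WP against WT, 3069 for 6WP against AM and 2485 for AM against WT.

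Signs changed for none of the differences that passed. For the fold changes whose sign did change, the log2 values over the libraries left out ran, for 6WP against WT, from -0.27 to 0.17 in TDP1, from -0.30 to 0.18 in DCLRE1C, from -0.30 to 0.017 in POLM, from -0.056 to 0.52 in XRCC4, from -0.37 to 0.0044 in TP53BP1, from -0.070 to 0.83 in C9orf142, from -0.36 to 0.037 in XRCC1 and from -0.11 to 0.017 in ABHD13. Against AM they ran from -0.31 to 0.25 in XRCC4, from -0.32 to 0.065 in TP53BP1, from -0.060 to 0.25 in NHEJ1 and from -0.015 to 0.32 in WRN. For AM against WT they ran from -0.11 to 0.18 in PARP3 and from -0.15 to 0.030 in TP53BP1. XRCC4 against AM was also -0.014 with DESeq2 size factors, -0.013 with the Wald test of DESeq2 and -0.012 with the replicate block. From WT to AM, PARP3 was -0.077 and RIF1 -0.017 with upper quartile factors, and PARP3 was -0.046 with library totals alone and -0.0028 with the filter of 10 counts. Of the members' values under the alternatives, 387 kept their direction and side of the threshold, 35 lost a call, 14 gained one and 14 changed sign.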
